A study of Mus musculus with 48 samples.

Results

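The hippocampus of heterozygous Cyfip2+/− mice was compared with that of WT mice at postnatal week 1 (PWK 1), across all genes, gene pathways and markers of cell types. The comparison used 8 of the 48 libraries of the series, which were chosen by their labels for region, age and genotype. Each library is taken as 1 mouse, which the sample titles do not state. The series covers frontal cortex and hippocampus, both genotypes, and PWK 1, 7, and 14, with 4 libraries in each of its 12 groups.

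Both PWK 1 groups were on the C57BL/6N background. Cyfip2+/− mice are labelled heterozygous for Cyfip2, and the study describes the WT mice as their littermates. How the minus allele was made is not given in the sources used here, and neither source names a promoter or cell type that would restrict it. The methods state that both sexes were used, but the sample labels give neither sex, nor litter, nor the day within the week, so these cannot be told apart from genotype where they are unequal between the groups. RNA from hippocampal tissue was sequenced in bulk. In such data, fewer cells of a type and less RNA per cell of that type cannot be told apart.

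CYFIP2 is a subunit of the WAVE regulatory complex, which sits downstream of the small GTPase RAC and turns on the Arp2/3 complex, the machine that nucleates branched actin filaments in growth cones and dendritic spines. Its paralog CYFIP1 occupies the same place in the complex, and both bind the fragile X protein FMRP. The first postnatal week is a time of fast change in the mouse hippocampus. Dentate granule neurons are still being born, synapses begin to form in large numbers, and myelin is only starting to appear.

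Values are normalized counts, and 4 values in a row are those of libraries 1 to 4 in order. Differences are Cyfip2+/− minus WT in log2 of the normalized count plus 1, given with their standard error (SE). The p-values come from limma, a linear model that moderates the variance of each gene by that of other genes. They are Benjamini-Hochberg adjusted over all genes tested, and a gene passed the test at an adjusted p below 0.05. A gene is called higher or lower at the unadjusted 0.05 level where its p before adjustment was below 0.05. Gene lists were chosen with earlier results of these data known, so counts of their members are descriptive and are no test.

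Cyfip2 (ENSMUSG00000020340, chromosome 11 of GRCm38, 46193850 to 46312859, minus strand, protein coding) was at 11111, 11099, 12670 and 12397 in Cyfip2+/− and 16944, 17408, 16615 and 15701 in WT libraries. All 4 Cyfip2+/− libraries lay below the 4 WT libraries. The means were 11819 ± 832 (SD, n = 4) and 16667 ± 721 (SD, n = 4), so Cyfip2+/− mice held 70.9% of the WT level, a log2 difference of -0.50 with an SE of 0.05 (adjusted p = 0.0147 from limma). The exact permutation test over the 8 libraries gave p = 0.0286 (two-sided), the smallest p that 4 against 4 allows. The adjusted p rose above 0.05, to at most 0.177, when Cyfip2+/− library 1 or 2, or any 1 of the WT libraries, was left out, while the log2 difference stayed between -0.53 and -0.47.

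Cyfip1, the paralog, was at 3910, 3531, 3652 and 4082 in Cyfip2+/− and 4017, 3876, 3807 and 4017 in WT libraries, and the groups overlapped. Its log2 difference was -0.05 (exact permutation test, two-sided, p = 0.371). Of the 16 genes listed as partners of CYFIP2, that is, Cyfip1, the other subunits of the WAVE complex, RAC GTPases, and the fragile X family with the cap-binding protein eIF4E, none passed the test after adjustment and 2 were higher at the unadjusted 0.05 level. Among all 16808 genes tested, 1043 or 6.21% were higher at that level and 1014 or 6.03% were lower. The 2 members were Rac3, a RAC GTPase of developing neurons, and Eif4e. Rac3 was at 2627, 2756, 2291 and 2326 in Cyfip2+/− and 1822, 1554, 2158 and 2260 in WT libraries, with a log2 difference of 0.37 (SE 0.11), and Eif4e differed by 0.14 (SE 0.05). In both, the lowest Cyfip2+/− library lay above the highest WT library. The complex's own subunits Nckap1, Wasf1, Wasf2, Wasf3, Abi1, Abi2 and Brk1 ranged from -0.11 to 0.01. Its subunits Nckap1l and Abi3 were lower, at -0.19 (SE 0.09) and -0.34 (SE 0.25). None of these subunits was past the unadjusted level, and the list's median was -0.05 against 0.003 for all genes.

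Downstream of the WAVE complex, 20 genes of the Arp2/3 complex and of actin assembly had a median of -0.01. At the unadjusted level 2 were higher and 2 were lower. Actg1, cytoplasmic gamma actin, was at 64004, 64314, 60357 and 60924 in Cyfip2+/− and 52419, 54024, 58155 and 58344 in WT libraries, and Cfl2, a cofilin that severs actin filaments, differed by 0.15 (SE 0.05). In both, all Cyfip2+/− libraries lay above all WT libraries. Arpc1b, a subunit of the Arp2/3 complex, was at 587.6, 591.9, 614.5 and 566.2 in Cyfip2+/− and 713.1, 716.3, 637.0 and 726.0 in WT libraries, with every Cyfip2+/− library below every WT library and a difference of -0.24 (SE 0.06). Pak1, a kinase activated by RAC, differed by -0.15 (SE 0.07) with overlapping groups. None of these 4 passed the test after adjustment. Without Cyfip2+/− libraries 1 and 2, which stood apart as described next, 1 of the 20 was lower and none was higher, and none of the 16 partners was past the unadjusted level, with a median of 0.01. Over all genes in that fit 2.98% were higher and 2.58% were lower.

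The 8 libraries were alike in size but not in composition. Normalized totals were 29.9 to 31 M, and the estimated depths were 25.6 to 35.6 M reads per library, with no difference between genotypes detected (exact permutation test, two-sided, p = 0.429). Correlations between libraries over all genes were 0.985 to 0.990 within Cyfip2+/−, 0.987 to 0.989 within WT and 0.984 to 0.989 between genotypes. The first principal component held 23.9% of the variance. It put Cyfip2+/− libraries 1 and 2 at 0.52 and 0.60, and the other 6 libraries between -0.35 and 0.06. Hippocampal markers were present throughout. The 8 dentate granule markers summed to between 9227 and 11656 in the hippocampal libraries and to between 5127 and 6104 in cortex libraries of the same age, and the 8 CA3 markers summed to between 14613 and 16597 against 10519 to 11324. The 8 CA1 markers did not separate the regions, at 20324 to 24187 against 21070 to 25199.

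Choroid plexus, the secretory epithelium that lies against the hippocampus in the lateral ventricle, was unevenly represented. Ttr, the transthyretin gene that defines it, was at 59594, 59936, 363.3 and 11748 in Cyfip2+/− and 208.0, 17071, 1500 and 16236 in WT libraries. Cyfip2+/− libraries 1 and 2 were far above all others, and Cyfip2+/− library 3 was close to the lowest. The 12 choroid plexus markers summed to between 912.7 and 64166 in Cyfip2+/− and to between 830.2 and 18836 in WT libraries, and none of the 12 was at 0. All 12 were higher in Cyfip2+/− on average, with a median difference of 1.1, but none was past the unadjusted 0.05 level. With the level of this list as a covariate, Cyfip2 differed by -0.46 (adjusted p = 0.0333 from limma). The part that choroid plexus has in the other differences was not tested beyond this covariate and leaving out Cyfip2+/− libraries 1 and 2, and values without those libraries are given beside most gene groups. In the covariate model 3 of 14 astrocyte, 7 of 14 microglial and 8 of 26 synaptic vesicle genes were lower at the unadjusted level, with medians of -0.11, -0.22 and -0.09. Over all genes 4.8% were higher and 4.08% were lower at that level in that model.

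**Figure D1:**
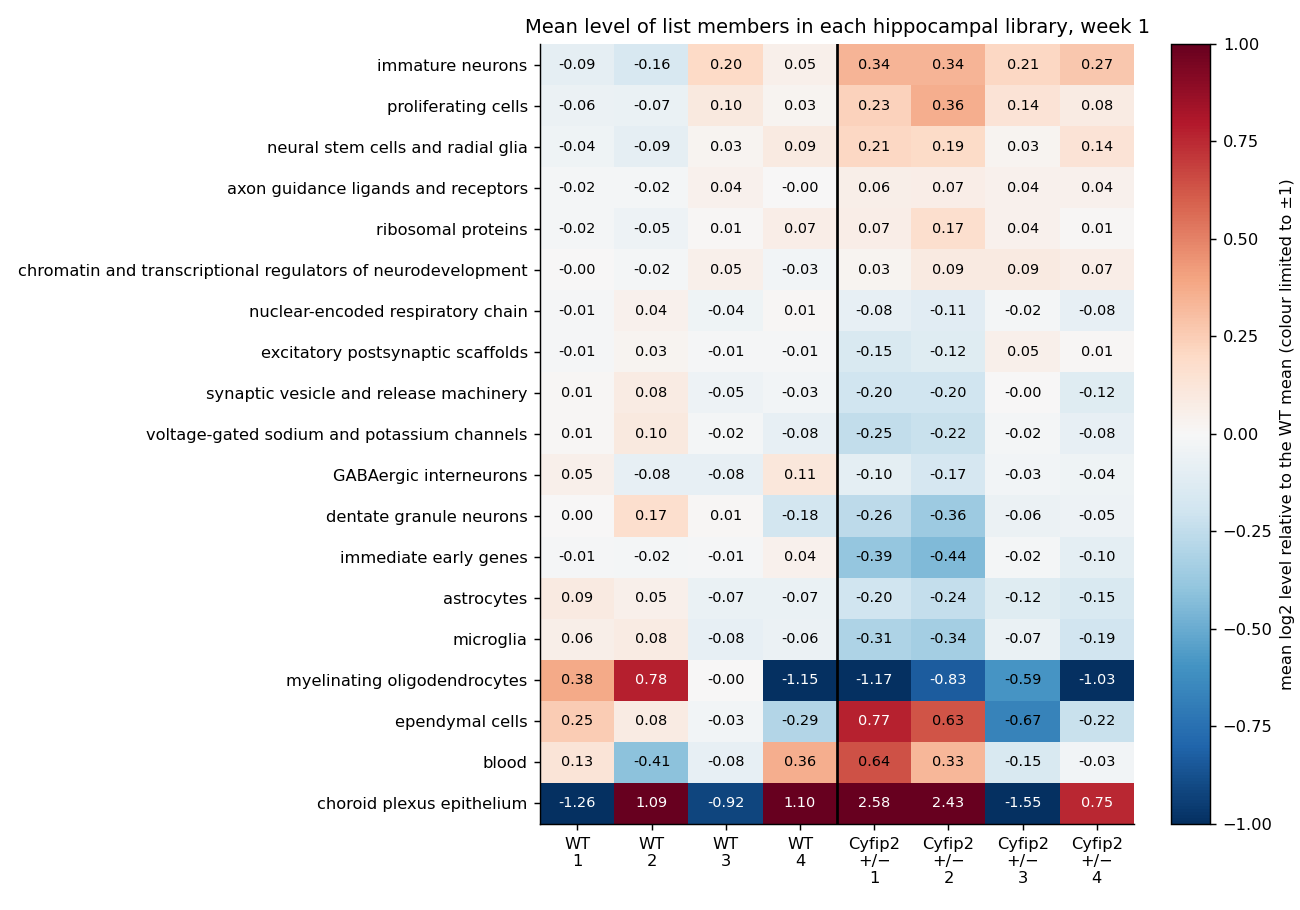
Mean log2 level of the members of 19 gene lists in each of the 8 libraries, relative to the WT mean, with the value written in each cell. Cyfip2+/− libraries 1 and 2 stand apart in choroid plexus markers (2.58 and 2.43) and in immediate early genes (-0.39 and -0.44), whereas immature neuron genes are at 0.21 to 0.34 in all 4 Cyfip2+/− libraries.

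Cyfip2 and Gm43302 were the only genes that passed the test, which is 0.0119% of the 16808 tested. Gm43302 met the filter for testing through the WT libraries alone, where it was higher, so its entry into the test depended on the contrast. Without any filter the same genes passed, and with at least 50 required in every library only Cyfip2 did. Of the other genes among the 16808, the smallest adjusted p was 0.242. In all, 572 genes had all Cyfip2+/− libraries above all WT libraries, which is 3.4% of those tested, and 446 had all of them below, which is 2.65%. The median residual SD of a gene was 0.12 on the log2 scale, and the median size of a difference was 0.09. Apart from Cyfip2 and Gm43302 no difference of the 8 libraries described from here on passed this test after adjustment over all genes. They are given as values with their SE or adjusted p.

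**Figure D2:**
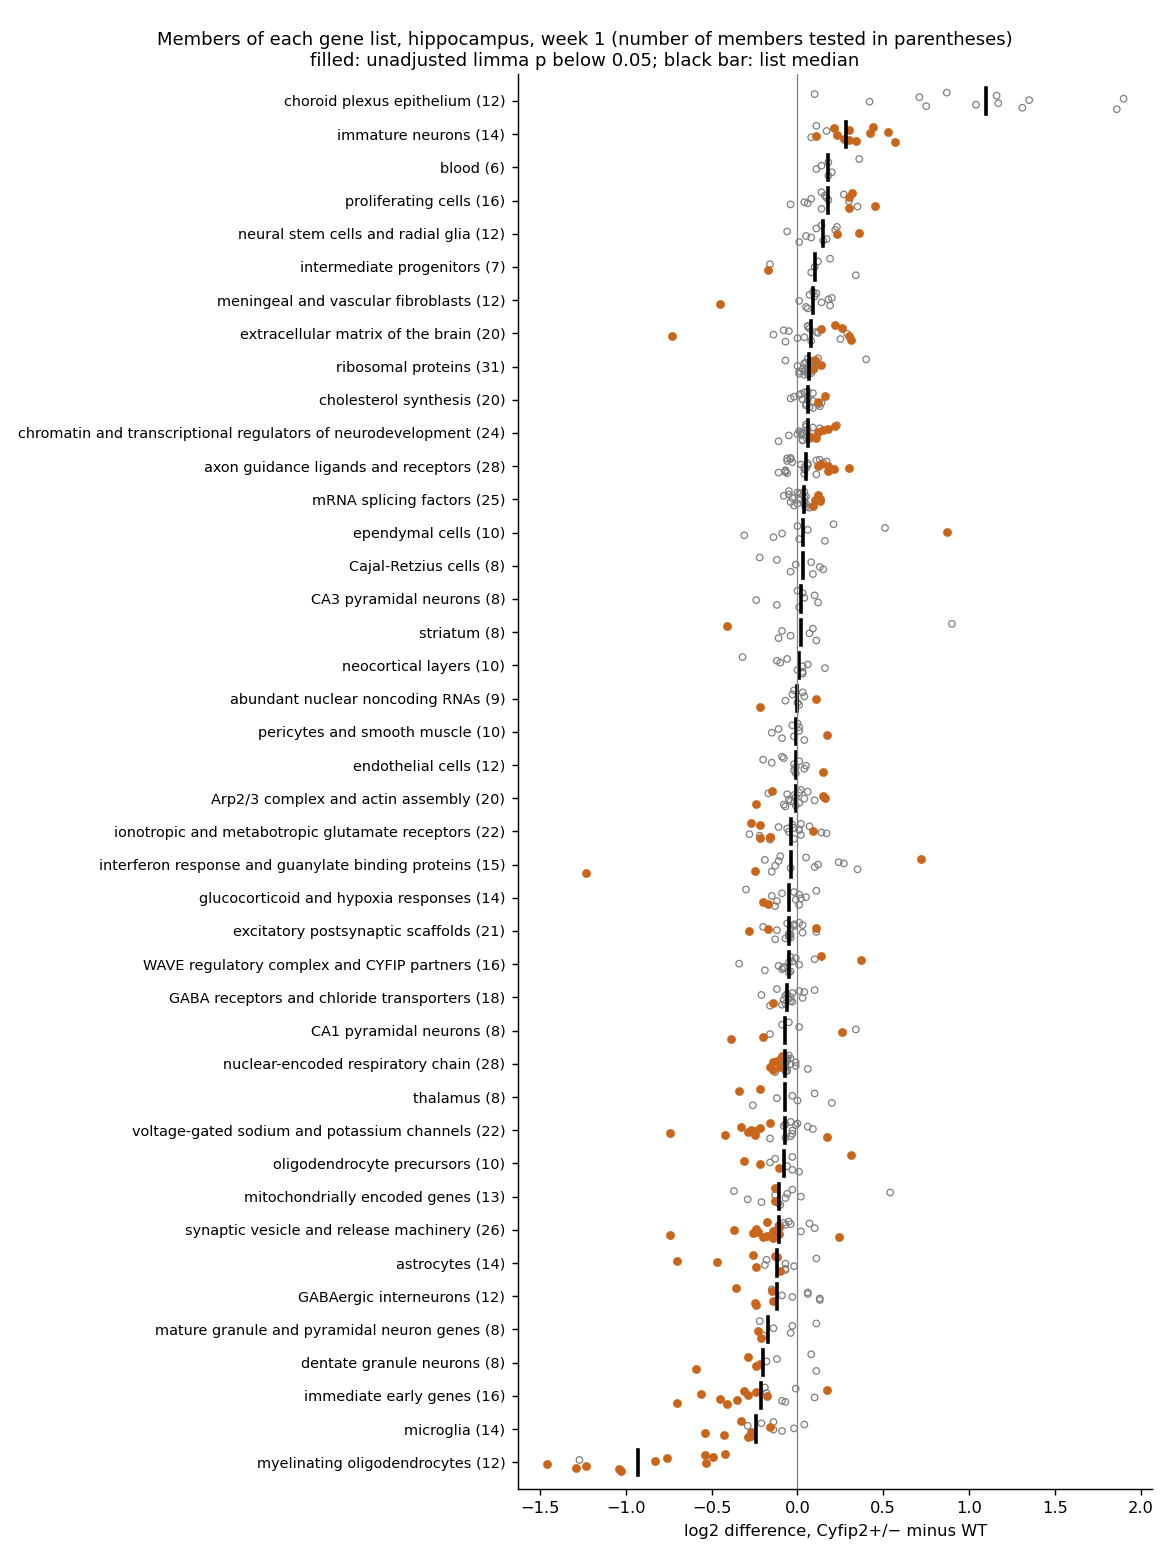
Log2 difference (Cyfip2+/− minus WT, horizontal axis) of every tested member of the 42 gene lists, ordered by list median (black bars), with members at an unadjusted p below 0.05 filled. Immature neuron genes lie to the right of 0 in 14 of 14 members, and genes of myelinating oligodendrocytes lie to the left in 12 of 12.

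Among protein-coding genes with a mean of at least 100, the 12 higher genes with the smallest p included Ttc28, Ezh2 and Nfix. Ttc28, a tetratricopeptide repeat gene of dividing cells, was at 1844, 2076, 1729 and 1918 in Cyfip2+/− and 1448, 1318, 1543 and 1452 in WT libraries (log2 difference 0.39, SE 0.06, adjusted p = 0.242). Ezh2, the methyltransferase of Polycomb repressive complex 2 and a gene of neural progenitors, was at 480.9, 567.0, 456.7 and 530.4 in Cyfip2+/− and 388.6, 359.3, 371.4 and 350.7 in WT libraries (log2 difference 0.46, SE 0.08, adjusted p = 0.276). Nfix, a transcription factor that drives progenitors to differentiate, was at 15303, 15473, 15043 and 14484 in Cyfip2+/− and 12307, 12517, 13619 and 13200 in WT libraries (log2 difference 0.22, SE 0.04, adjusted p = 0.277). In each of these genes the groups did not overlap, and the WT library with the highest value was 1 or 3.

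Jpt1, a small protein abundant in growing neurites, was at 4807, 4779, 4166 and 4353 in Cyfip2+/− and 3421, 3255, 3825 and 3773 in WT libraries (log2 difference 0.34, SE 0.06, adjusted p = 0.277). Mtss1, an actin-binding protein of dendrites, was at 5046, 5072, 4659 and 4861 in Cyfip2+/− and 3755, 3623, 4281 and 4246 in WT libraries and differed by 0.31 (SE 0.06). In both genes WT libraries 3 and 4 were nearer to the Cyfip2+/− libraries than WT libraries 1 and 2 were. Elk3, a transcription factor of blood vessels, was at 348.0, 391.8, 404.8 and 364.4 in Cyfip2+/− and 259.3, 250.5, 295.9 and 302.0 in WT libraries and differed by 0.45 (SE 0.09). Stx7, an endosomal syntaxin, differed by 0.21 (SE 0.04), Pik3c2b, a lipid kinase, by 0.26 (SE 0.05), Pip4p1, a lipid phosphatase, by 0.24 (SE 0.05), and Ift140, a ciliary transport subunit, by 0.23 (SE 0.05). Sox4 and a copy of Nnt complete the 12 and are described with their groups. In all 12 the Cyfip2+/− libraries lay above the WT libraries. With Cyfip2+/− libraries 1 and 2 left out, the difference was between 0.19 for Nfix and 0.75 for the copy of Nnt. Its sign there follows from groups that did not overlap.

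The 12 lower genes with the smallest p included Cyfip2, Bdnf, Ptgs2 and Lifr. Bdnf, the neurotrophin that neurons release with activity, was at 974.0, 922.9, 1111 and 1092 in Cyfip2+/− and 1336, 1298, 1212 and 1234 in WT libraries (log2 difference -0.31, SE 0.07, adjusted p = 0.277). Ptgs2, which encodes the inducible cyclooxygenase of excitatory neurons, was at 148.4, 137.7, 203.0 and 224.3 in Cyfip2+/− and 327.0, 356.7, 279.2 and 290.3 in WT libraries (log2 difference -0.83, SE 0.16, adjusted p = 0.277). Lifr, the receptor of leukaemia inhibitory factor, was at 1057, 998.1, 1391 and 1214 in Cyfip2+/− and 1663, 1579, 1677 and 1490 in WT libraries and differed by -0.47 (SE 0.09). In all 3, Cyfip2+/− libraries 1 and 2 were the lowest, and without them the differences were -0.20 for Bdnf, -0.55 for Ptgs2 and -0.30 for Lifr.

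Mkln1, the gene of muskelin, a binding partner of synaptic receptors, was at 2613, 2473, 2543 and 2862 in Cyfip2+/− and 3254, 3155, 3040 and 3148 in WT libraries and differed by -0.27 (SE 0.05). Upp2, a uridine phosphorylase, was at 249.9, 250.1, 271.1 and 280.1 in Cyfip2+/− and 384.0, 422.4, 310.4 and 396.8 in WT libraries and differed by -0.52 (SE 0.10). Ccn3, a matricellular protein, differed by -0.31 (SE 0.06), Tmem255a by -0.43 (SE 0.09), Zbtb4, a methyl-DNA binding repressor, by -0.20 (SE 0.04), and Nol3, an inhibitor of apoptosis, by -0.50 (SE 0.11). Nap1l5 and Impact, both imprinted and expressed from the paternal allele in brain, differed by -0.32 (SE 0.07) and -0.28 (SE 0.06). The 12 lower genes were picked for a small p, and all had every Cyfip2+/− library below every WT library. Their direction without Cyfip2+/− libraries 1 and 2 follows from this, and the differences there lay between -0.55 and -0.18.

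**Figure D3:**
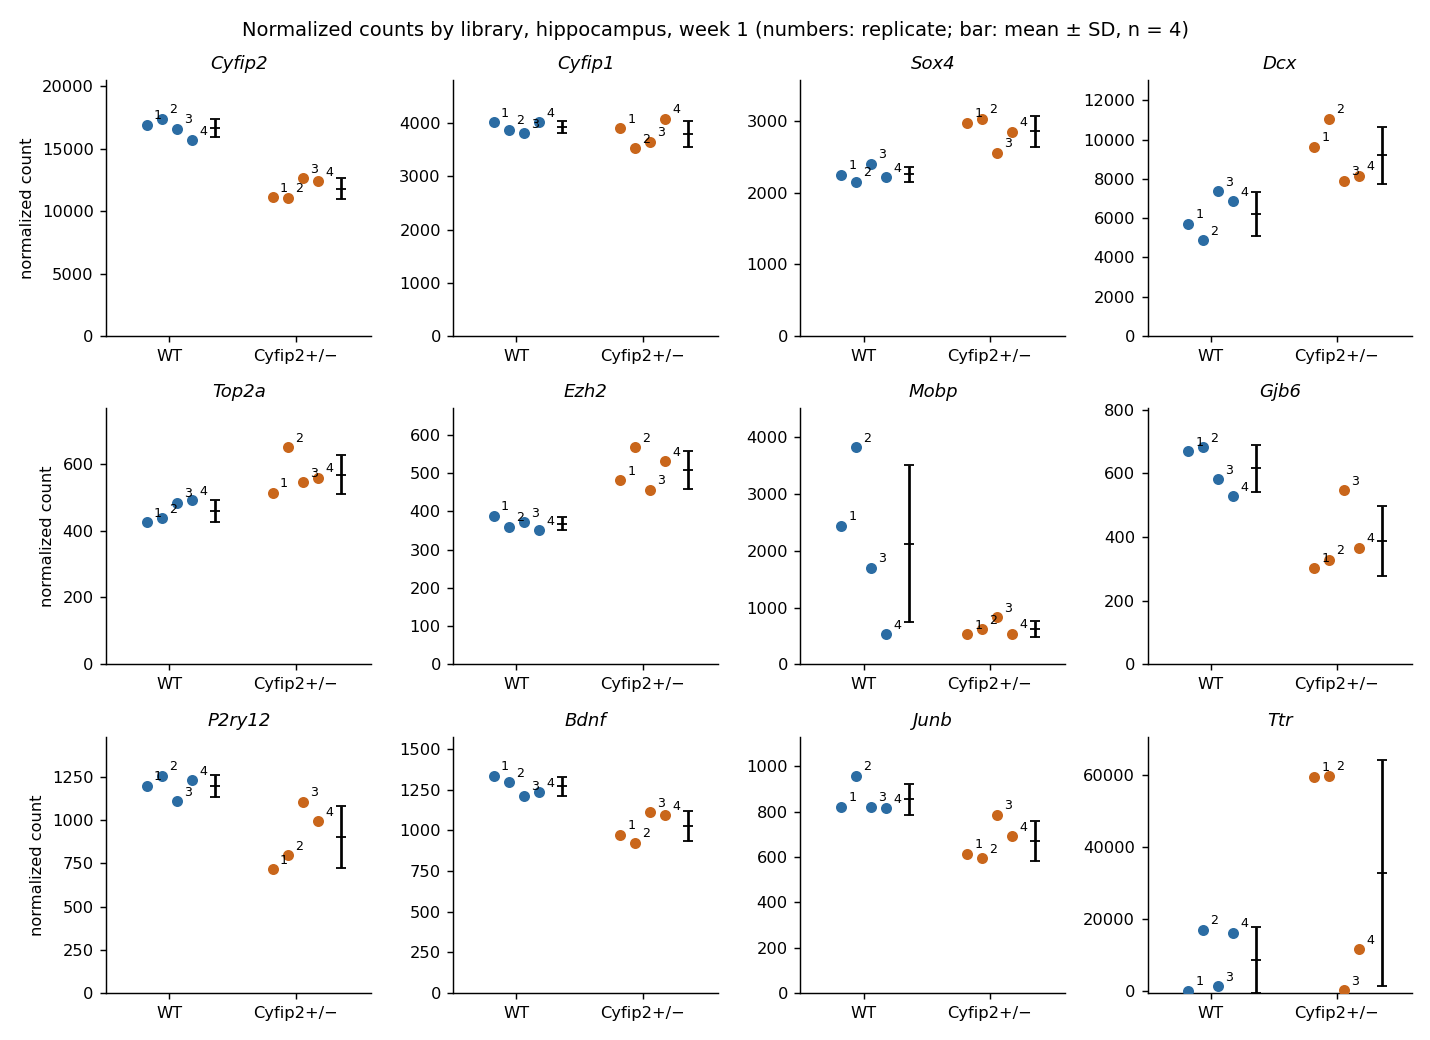
Normalized counts of 12 genes in each of the 8 libraries (points, numbered by replicate), with the mean ± SD of each genotype (n = 4). In Cyfip2 the genotypes do not overlap, Mobp is at 527.0 in WT library 4, below all Cyfip2+/− libraries, and Ttr is at 59594 and 59936 in Cyfip2+/− libraries 1 and 2 and at most 17071 elsewhere.

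Genes of immature neurons were higher in Cyfip2+/− libraries. Of 14 tested members, 11 were higher at the unadjusted 0.05 level and none was lower, 7 had groups that did not overlap, all 14 were above 0, and the median difference was 0.28. Sox4, a transcription factor that keeps young neurons immature, was at 2976, 3030, 2557 and 2853 in Cyfip2+/− and 2253, 2151, 2401 and 2217 in WT libraries (log2 difference 0.34, SE 0.06, adjusted p = 0.276). Dcx, the microtubule-binding doublecortin of migrating neurons, was at 9643, 11054, 7895 and 8162 in Cyfip2+/− and 5722, 4880, 7373 and 6865 in WT libraries (log2 difference 0.57, SE 0.13, adjusted p = 0.277). Neurod1, which drives granule neuron differentiation, was at 1667, 1534, 1651 and 1718 in Cyfip2+/− and 1342, 1259, 1501 and 1352 in WT libraries (log2 difference 0.27, SE 0.06, adjusted p = 0.277). Each of these 3 had all Cyfip2+/− libraries above all WT libraries, and for Sox4 the gap was between Cyfip2+/− library 3 and WT library 3.

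Igfbpl1, a marker of neuroblasts, was at 1486, 1425, 1480 and 1660 in Cyfip2+/− and 1054, 990.4, 1391 and 1122 in WT libraries and differed by 0.42 (SE 0.09). Tubb2b, a tubulin of growing neurons, was at 68584, 70717, 55038 and 57258 in Cyfip2+/− and 41384, 38252, 54147 and 53107 in WT libraries and differed by 0.44 (SE 0.12). The sum of the 14 genes was 172608, 179061, 148863 and 151849 in Cyfip2+/− and 122220, 114751, 144545 and 141663 in WT libraries. The groups did not overlap, and WT libraries 3 and 4 were nearer to the Cyfip2+/− libraries than WT libraries 1 and 2 were. Without Cyfip2+/− libraries 1 and 2, 9 of the 14 were higher and the median was 0.22, and with the choroid plexus level as a covariate 12 were higher and the median was 0.26. Both fits kept WT libraries 1 and 2, which had the lowest sums, and no fit left out both. The mean log2 level relative to the WT mean was 0.21 and 0.27 in Cyfip2+/− libraries 3 and 4. It was 0.20 and 0.05 in WT libraries 3 and 4.

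Genes of progenitors and dividing cells had smaller differences. Of 16 genes of the cell cycle, 4 were higher and none lower, 15 were above 0, and the median was 0.18. Top2a, the topoisomerase of dividing cells, was at 512.9, 648.5, 544.6 and 557.1 in Cyfip2+/− and 425.5, 437.1, 482.6 and 490.8 in WT libraries and differed by 0.30 (SE 0.08), with groups that did not overlap. Ccnb2, a mitotic cyclin, was at 93.9, 69.3, 76.2 and 82.7 in Cyfip2+/− and 61.1, 42.8, 68.0 and 64.6 in WT libraries and differed by 0.45 (SE 0.18). With Cyfip2+/− libraries 1 and 2 left out only 1 of the 16 was higher, and the median was 0.06. Of 12 genes of neural stem cells and radial glia, 2 were higher, the lipid-binding Fabp7 by 0.36 (SE 0.14) and the intermediate filament gene Vim by 0.23 (SE 0.10), and the median was 0.15, which without those libraries left none higher and a median of 0.10. Of 7 tested genes of intermediate progenitors, Eomes, the transcription factor that defines them, differed by 0.34 (SE 0.18), and only the antiproliferative Btg2, at -0.17 (SE 0.07), was past the unadjusted level.

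Genes of myelinating oligodendrocytes had the largest median difference among the lists of neural cell types. Of 12 members, 11 were lower, none was higher, and the median difference was -0.93. Mobp, a structural protein of compact myelin, was at 531.5, 615.9, 831.0 and 541.2 in Cyfip2+/− and 2443, 3821, 1702 and 527.0 in WT libraries (log2 difference -1.46, SE 0.47, adjusted p = 0.299), and Mag, the adhesion protein that faces the axon, was at 425.0, 597.4, 633.1 and 422.1 in Cyfip2+/− and 1724, 2365, 1091 and 457.1 in WT libraries and differed by -1.23 (SE 0.40). WT library 4 lay below the Cyfip2+/− libraries in Mobp and within their range in Mag, WT libraries 1 and 2 were the highest, and in none of the 12 were the groups apart.

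Summed over the 12 genes, the levels were 15631, 19224, 21907 and 16271 in Cyfip2+/− and 43678, 57075, 31277 and 17088 in WT libraries. Without Cyfip2+/− libraries 1 and 2, 3 of the 12 were lower and the median was again -0.93. That fit kept WT libraries 1 and 2, which had the highest sums, and no fit left out both. In the choroid plexus covariate model 10 were lower and the median was -0.83. Oligodendrocyte precursors had a smaller median difference. Of 10 markers 3 were lower, among them Gpr17, a receptor of precursors about to differentiate, at 4653, 5363, 5630 and 5088 in Cyfip2+/− and 7041, 6953, 5909 and 5771 in WT libraries (log2 difference -0.31, SE 0.08, adjusted p = 0.277), and Sox10, the lineage's master regulator, at -0.22 (SE 0.07). The proteoglycan gene Vcan was higher by 0.31 (SE 0.12), and the list's median was -0.08.

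Astrocyte and microglial genes were lower too, and by less. Of 14 astrocyte genes 7 were lower and none was higher, with a median of -0.12. Gjb6, the connexin 30 of mature astrocytes, was at 304.3, 328.4, 547.3 and 366.9 in Cyfip2+/− and 670.1, 681.8, 581.2 and 528.4 in WT libraries (log2 difference -0.70, SE 0.16, adjusted p = 0.277), and S100b, a calcium-binding protein that appears as astrocytes mature, was at 747.3, 670.4, 925.0 and 892.2 in Cyfip2+/− and 1273, 1252, 940.3 and 1006 in WT libraries and differed by -0.47 (SE 0.12). Slc1a2, the main glutamate transporter of astrocytes, was at 63217, 62625, 82002 and 80203 in Cyfip2+/− and 89461, 90953, 80449 and 78176 in WT libraries and differed by -0.24 (SE 0.10), while the water channel gene Aqp4 differed by -0.10 (SE 0.04). In Slc1a2, only Cyfip2+/− libraries 1 and 2 were below the WT range. Without them 3 of the 14 were lower, and Slc1a2 differed by -0.06.

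Of 14 microglial genes 7 were lower and none higher, 4 had groups that did not overlap, and the median was -0.24. Csf1r, the receptor that microglia need to survive, was at 2021, 1946, 2283 and 2234 in Cyfip2+/− and 2756, 2676, 2667 and 2311 in WT libraries (log2 difference -0.29, SE 0.07, adjusted p = 0.277). P2ry12, the purinergic receptor of resting microglia, was at 715.7, 798.8, 1107 and 993.2 in Cyfip2+/− and 1200, 1258, 1111 and 1232 in WT libraries (log2 difference -0.43, SE 0.12, adjusted p = 0.277), and Tmem119, another homeostatic marker, was at 234.8, 223.3, 388.1 and 303.6 in Cyfip2+/− and 436.3, 419.5, 388.0 and 385.5 in WT libraries and differed by -0.54 (SE 0.15). In these genes Cyfip2+/− libraries 1 and 2 were the lowest, and library 3 lay at or near the WT range. The chemokine receptor gene Cx3cr1 differed by -0.27 (SE 0.07) and the complement gene C1qa by -0.27 (SE 0.09), whereas Aif1 and Tyrobp, which encode general markers of the lineage, were at -0.02 and 0.04, neither past the unadjusted level. With Cyfip2+/− libraries 1 and 2 left out, 3 of the 14 were lower and the median was -0.17.

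Of 26 genes of synaptic vesicles and transmitter release, 14 were lower and 1 was higher, with a median of -0.11. Snap25, a fusion protein of the presynaptic terminal, was at 25548, 24040, 29957 and 28633 in Cyfip2+/− and 31327, 32916, 30188 and 32147 in WT libraries (log2 difference -0.23, SE 0.07, adjusted p = 0.287), and Sv2b, a vesicle glycoprotein, was at 11770, 11036, 13682 and 13342 in Cyfip2+/− and 15174, 15324, 13885 and 15133 in WT libraries and differed by -0.26 (SE 0.07). Syt2, the fast calcium sensor of inhibitory terminals, was at 366.4, 345.8, 548.2 and 295.8 in Cyfip2+/− and 702.0, 808.3, 550.2 and 519.6 in WT libraries and differed by -0.74 (SE 0.19). Slc17a7, the vesicular glutamate transporter VGLUT1, differed by -0.24 (SE 0.08), and Syn3, the synapsin of developing neurons, was the higher member, at 0.24 (SE 0.09). Cyfip2+/− libraries 1 and 2 were the lowest in Snap25, Sv2b and Slc17a7. Without them 3 of the 26 were lower, and the median was -0.05.

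Voltage-gated sodium and potassium channels gave 9 lower and 1 higher of 22, with a median of -0.07. Kcnc2, a channel of fast-spiking interneurons, was at 1454, 1455, 1849 and 1515 in Cyfip2+/− and 2020, 2119, 1805 and 1933 in WT libraries and differed by -0.33 (SE 0.08), and the sodium channel subunits Scn2b and Scn4b, which rise as axons mature, differed by -0.42 (SE 0.12) and -0.74 (SE 0.26). Scn3a, the sodium channel of the embryonic and neonatal brain, was the higher member, at 2789, 3086, 3198 and 3089 in Cyfip2+/− and 2610, 2526, 2904 and 2754 in WT libraries (log2 difference 0.17, SE 0.06, adjusted p = 0.301). Without Cyfip2+/− libraries 1 and 2, 2 were lower and 1 was higher.

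Receptors of both transmitters and their scaffolds had medians near 0. Of 22 glutamate receptor genes 5 were lower and 1 was higher, with Gria3, an AMPA receptor subunit, at 3864, 3729, 4486 and 4472 in Cyfip2+/− and 4858, 5163, 4723 and 4502 in WT libraries (log2 difference -0.22, SE 0.07, adjusted p = 0.293) and Grin1, the obligate NMDA receptor subunit, at -0.16 (SE 0.07). Of 18 GABA receptor and chloride transporter genes 1 was lower, Gabra4 at -0.14 (SE 0.06), while Slc12a5, the KCC2 transporter that makes GABA inhibitory as neurons mature, was at -0.12 (SE 0.06). Of 21 excitatory postsynaptic scaffold genes 2 were lower and 1 was higher, and Dlgap1 had the smallest p, at -0.28 (SE 0.09). Their medians were -0.04, -0.06 and -0.05. Leaving out Cyfip2+/− libraries 1 and 2 brought the 3 medians to between -0.01 and 0.02.

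By neuron class, dentate granule markers gave 4 lower of 8 with a median of -0.20. C1ql2, a synaptic organizer of mossy fibres, was at 245.0, 214.5, 331.9 and 336.6 in Cyfip2+/− and 442.3, 496.3, 387.7 and 358.8 in WT libraries (log2 difference -0.59, SE 0.16, adjusted p = 0.277), and its relative C1ql3 differed by -0.24 (SE 0.09). With Cyfip2+/− libraries 1 and 2 left out, 1 of the 8 was lower and 2 were higher, and the median was -0.09. Of 8 CA1 markers Pou3f1 was higher, at 1689, 1707, 1772 and 1852 in Cyfip2+/− and 1338, 1549, 1682 and 1332 in WT libraries (log2 difference 0.26, SE 0.07, adjusted p = 0.291), and Man1a and Wfs1 were lower, at -0.20 (SE 0.06) and -0.39 (SE 0.17). The list's median was -0.07, and 0.03 without those libraries, where 1 was higher and none was lower. None of the 8 CA3 markers was past the unadjusted level, nor was any of the 8 Cajal-Retzius markers. Of 8 genes shared by mature granule and pyramidal neurons 2 were lower, Snap25 and the calcium buffer Calb1, which differed by -0.21 (SE 0.09). The list's median was -0.17, and -0.03 without Cyfip2+/− libraries 1 and 2, where 1 was lower.

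Of 12 interneuron genes 5 were lower and none higher, with a median of -0.12. The GABA-synthesizing enzyme genes Gad1 and Gad2 were at 4478, 4003, 5131 and 5143 in Cyfip2+/− and 5587, 5787, 5283 and 5422 in WT libraries and at 3487, 3264, 4106 and 4004 in Cyfip2+/− and 4447, 4383, 4211 and 4498 in WT libraries, in that order, with differences of -0.24 (SE 0.07) and -0.25 (SE 0.07). Both had groups that did not overlap, with Cyfip2+/− libraries 1 and 2 the lowest. Pvalb, the parvalbumin of fast-spiking interneurons, which turns on late and is not among the 12, was at 18.8, 21.3, 54.9 and 52.8 in Cyfip2+/− and 97.1, 139.4, 76.2 and 69.9 in WT libraries and differed by -1.46 (SE 0.37). Its 4 Cyfip2+/− libraries were all below the WT libraries. Leaving out Cyfip2+/− libraries 1 and 2 left 1 of the 12 lower and a median of -0.05, and Pvalb at -0.76.

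Immediate early genes, which neurons transcribe within minutes of activity, were 9 lower and 1 higher of 16, with a median of -0.21. Arc, which regulates AMPA receptor uptake at synapses, was at 942.0, 940.5, 1479 and 1259 in Cyfip2+/− and 1867, 1883, 1531 and 1451 in WT libraries (log2 difference -0.56, SE 0.15, adjusted p = 0.277). Junb, an AP-1 transcription factor, was at 613.4, 594.9, 786.5 and 691.4 in Cyfip2+/− and 821.3, 958.3, 821.7 and 816.2 in WT libraries (log2 difference -0.35, SE 0.09, adjusted p = 0.277), Egr3 differed by -0.18 (SE 0.05), and Egr1, a zinc finger factor, was at 1566, 1680, 2672 and 2264 in Cyfip2+/− and 2684, 3049, 2687 and 2552 in WT libraries and differed by -0.45 (SE 0.14). Fos and Fosb differed by -0.41 (SE 0.17) and -0.70 (SE 0.32). Nr4a3, a nuclear receptor, was the higher member, at 4435, 4580, 4107 and 4668 in Cyfip2+/− and 3769, 3810, 4288 and 3992 in WT libraries (log2 difference 0.17, SE 0.05, adjusted p = 0.298). Apart from Nr4a3, Cyfip2+/− libraries 1 and 2 were the lowest in each of these genes, and Junb and Egr3 were the members without overlap. Without libraries 1 and 2, 2 of the 16 were lower, the median was -0.06, and Fos differed by -0.05. With the choroid plexus level as a covariate 4 were lower and 1 was higher, and the median was -0.15.

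Promoters of these genes were read from RefSeq (GRCm38.p6, 250 bases before to 50 after the start), where 12 of the 16 matched. The letters TGACG, the core of the element bound by CREB, were searched on both strands. They were in 9 of the 12 promoters and in 21% of all 27025 promoters of that length. The full palindrome TGACGTCA, which contains the core, was in 1 of the 12 and in 1.88% of all. The promoters of Junb (chr8:84978699-84978998, minus strand), the lower member with the smallest p among the 12, and of Nr4a3 (chr4:48045055-48045354, plus strand), the higher member, show that the core was present in members of both directions, once in Junb and 4 times in Nr4a3. They are printed 5′ to 3′, with the core in capitals.
Junb: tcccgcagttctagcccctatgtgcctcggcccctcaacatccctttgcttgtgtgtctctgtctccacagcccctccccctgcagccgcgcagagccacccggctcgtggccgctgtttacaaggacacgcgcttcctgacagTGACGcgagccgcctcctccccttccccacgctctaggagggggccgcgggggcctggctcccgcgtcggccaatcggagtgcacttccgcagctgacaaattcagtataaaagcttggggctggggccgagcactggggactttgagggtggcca
Nr4a3: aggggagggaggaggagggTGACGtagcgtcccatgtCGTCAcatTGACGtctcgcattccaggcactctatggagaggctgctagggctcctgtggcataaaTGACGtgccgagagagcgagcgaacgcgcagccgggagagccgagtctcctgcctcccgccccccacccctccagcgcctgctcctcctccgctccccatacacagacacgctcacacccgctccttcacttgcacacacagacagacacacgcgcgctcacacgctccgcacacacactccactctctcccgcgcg

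Several sets of developmental genes had small positive medians. Of 24 chromatin and transcriptional regulators of neural development 6 were higher and none lower, 5 of them without overlap, with a median of 0.06. Besides Nfix, Zbtb18, a repressor needed for cortical neurons to form, was at 21693, 22081, 22076 and 22985 in Cyfip2+/− and 19042, 19173, 21557 and 18753 in WT libraries (log2 difference 0.18, SE 0.05, adjusted p = 0.277), Foxp1 differed by 0.15 (SE 0.05) and Tcf4 by 0.12 (SE 0.04). Without Cyfip2+/− libraries 1 and 2, 5 of the 24 were higher and the median was 0.07. Of 28 axon guidance genes 6 were higher and none lower, led by the plexins Plxna1 and Plxna3, which differed by 0.21 (SE 0.06) and 0.30 (SE 0.09), and by the semaphorin coreceptor Nrp2, at 0.18 (SE 0.07). The list's median was 0.05, also without those libraries, and 0.02 without WT library 4.

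Of 25 splicing factors 5 were higher and none lower, with Hnrnph1 at 0.13 (SE 0.04) and Rbfox2 at 0.12 (SE 0.04), and a median of 0.04, which was 0.02 without Cyfip2+/− library 4 or WT library 2. Ribosomal protein genes were above 0 in 29 of 31, but 3 were past the unadjusted level, and the median was 0.07. Nuclear genes of the respiratory chain were below 0 in 27 of 28, 6 were past that level, and the median was also small, at -0.07. Cox5b, a subunit of cytochrome c oxidase, was at 4930, 5107, 5249 and 4913 in Cyfip2+/− and 5477, 5694, 5556 and 5522 in WT libraries (log2 difference -0.14, SE 0.04, adjusted p = 0.277), and Sdha, the flavoprotein of succinate dehydrogenase, differed by -0.16 (SE 0.05). Both had groups that did not overlap. Of 13 genes encoded by the mitochondrial genome 2 were lower, with mt-Cytb at 161413, 157026, 173600 and 172824 in Cyfip2+/− and 180761, 193797, 177370 and 177920 in WT libraries (log2 difference -0.13, SE 0.06, adjusted p = 0.369). With Cyfip2+/− libraries 1 and 2 left out the medians were 0.02 for ribosomal proteins and -0.03 for the respiratory chain.

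In the extracellular matrix list 5 of 20 were higher and 1 was lower. Lama2, a laminin chain of basement membranes, was at 930.5, 818.6, 1046 and 885.6 in Cyfip2+/− and 765.8, 781.7, 722.2 and 794.3 in WT libraries (log2 difference 0.26, SE 0.07, adjusted p = 0.281), Col4a1, a collagen of the same membranes, differed by 0.14 (SE 0.04), and Tnc, a tenascin of progenitor niches, by 0.30 (SE 0.11). Hapln4, a link protein of perineuronal nets, the matrix of mature interneurons, was the lower member, at 124.9, 123.6, 246.4 and 190.9 in Cyfip2+/− and 312.4, 456.2, 220.8 and 178.1 in WT libraries (log2 difference -0.73, SE 0.29, adjusted p = 0.352). The cholesterol synthesis list had 18 of 20 genes above 0, of which Dhcr7, at 0.16 (SE 0.05), and Fdft1, at 0.12 (SE 0.05), were past the unadjusted level. Its median was 0.06, and 0.00 without Cyfip2+/− libraries 1 and 2.

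The vascular, blood and neighbouring-region lists did not share a direction, though single lists did lean to 1 side. Of 12 endothelial genes Pecam1 was higher, at 0.15 (SE 0.06), of 10 pericyte genes the potassium channel regulator Abcc9, at 0.17 (SE 0.06), and of 12 fibroblast genes the proteoglycan Dcn was lower, at 1524, 1037, 1193 and 1305 in Cyfip2+/− and 1725, 1521, 1615 and 2001 in WT libraries (log2 difference -0.45, SE 0.11, adjusted p = 0.277). Dcn was the only fibroblast gene below 0, and the other 11 were above 0. Each list's median was between -0.01 and 0.09. All 6 tested blood genes were above 0, but none was past the unadjusted level, with a median of 0.18. Ependymal markers gave 1 higher of 10, the ciliary gene Pifo at 0.87 (SE 0.33), and their sum was highest in Cyfip2+/− libraries 1 and 2, without which 3 were lower and none was higher, with a median of -0.50. Of 8 thalamic markers the calcium-binding Calb2, which hippocampal interneurons also express, was lower, at -0.22 (SE 0.06), as was 1 other, and of 8 striatal markers Penk, the enkephalin precursor, was lower, at 240.4, 210.0, 221.3 and 237.7 in Cyfip2+/− and 323.4, 262.7, 308.3 and 316.6 in WT libraries (log2 difference -0.41, SE 0.09, adjusted p = 0.277). None of the 10 neocortical layer markers was past that level, nor any choroid plexus marker. The glucocorticoid-induced Tsc22d3 differed by -0.17 (SE 0.07), 1 of 2 lower among 14 genes of glucocorticoid and hypoxia responses, and among 9 abundant nuclear noncoding RNAs Malat1 was lower, at -0.22 (SE 0.09), and 1 was higher.

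Gm43302 (ENSMUSG00000079362, chromosome 5 of GRCm38, 105214907 to 105293695, minus strand) was the other gene that passed the test (adjusted p = 0.0131 from limma). It was listed at 0.0, 0.0, 0.0 and 0.0 in Cyfip2+/− and 30.6, 15.5, 17.9 and 13.5 in WT libraries. The gene thus met the filter through the WT libraries alone, where it was higher. Being listed at 0 in a table without reads can also be an estimate that failed, so no fold is given, and the fitted log2 difference of -4.28 rests on the pseudocount. With a pseudocount of 10 it was -1.52 (adjusted p = 0.071), and the gene also no longer passed with all 48 libraries (adjusted p = 0.0501 from limma) or without Cyfip2+/− libraries 1 and 2 (adjusted p = 0.0509 from limma). When any 1 WT library was left out, the gene no longer reached 10 in 4 libraries and was not tested. The guanylate-binding protein gene Gbp6 (105270702 to 105293698, same strand) overlaps it. Gbp6, an interferon-induced GTPase, was at 92.8, 80.0, 82.7 and 71.7 in Cyfip2+/− and 46.3, 47.0, 44.5 and 60.0 in WT libraries (log2 difference 0.72, SE 0.16, adjusted p = 0.277), opposite to Gm43302, and the sum of both was 81.8 ± 8.69 (SD, n = 4) in Cyfip2+/− and 68.8 ± 7.48 (SD, n = 4) in WT libraries (exact permutation test, two-sided, p = 0.0857).

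Of the 31-base words in the Gm43302 transcript, 95.7% also occur in the 3 Gbp6 transcripts of GENCODE vM21, and these words are 67.8% of those of Gbp6. The 90-base coding windows of Gbp6 differ from Gm43302 by at most 2 bases in all 583 windows. The first window with 2 differences, bases 1758 to 1847 of Gbp6 transcript ENSMUST00000196520.1 and 1757 to 1846 of Gm43302 transcript ENSMUST00000050011.9, is printed 5′ to 3′ with the differing bases in capitals, to show how little separates the genes.
Gbp6: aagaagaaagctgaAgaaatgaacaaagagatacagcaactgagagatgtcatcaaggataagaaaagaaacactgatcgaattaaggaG
Gm43302: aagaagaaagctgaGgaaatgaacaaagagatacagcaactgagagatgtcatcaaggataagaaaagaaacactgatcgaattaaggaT

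Outside the PWK 1 hippocampus, Gm43302 was at 0.0, 0.0, 32.9 and 21.9 in Cyfip2+/− cortex at PWK 1 and at 0.0, 0.0, 14.5 and 0.0 in WT cortex, in the hippocampus at PWK 7 it was at 0.0, 0.0, 5.9 and 0.0 in Cyfip2+/− and at 0.0, 0.0, 14.6 and 8.8 in WT libraries, and at PWK 14 it was at 9.5, 10.5, 7.1 and 8.4 in Cyfip2+/− and at 0.0, 11.5, 13.6 and 0.0 in WT libraries. Interferon-related genes as a list had 1 higher, Gbp6, and 2 lower of 15 tested. One of the lower was Ifit1, at 7.3, 6.9, 15 and 4.8 in Cyfip2+/− and 30.9, 22.7, 16.8 and 12.8 in WT libraries (log2 difference -1.23, SE 0.39, adjusted p = 0.298), and the list's median was -0.04. It was 0.10 without WT library 1, and between -0.13 and 0.06 without any other 1 library.

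A similar case, chosen after its values were seen, was the processed pseudogene Rps13-ps1 (chromosome 8, 87047689 to 87048226, plus strand). It was listed at 252.2, 151.4, 275.6 and 126.7 in Cyfip2+/− and 36.6, 0.0, 0.0 and 0.0 in WT libraries (adjusted p = 0.242 from limma). The gene met the filter through the Cyfip2+/− libraries, where it was higher. Without WT library 1, the 1 WT library above 0, the remaining WT values were all 0. The fitted log2 difference was then 7.59, which also rests on the pseudocount. The p of that fit was set by these choices and is not used. Its parent Rps13, a ribosomal protein gene, was at 2700, 2818, 2666 and 2654 in Cyfip2+/− and 2800, 2742, 2871 and 2837 in WT libraries. Of the 31-base words of the pseudogene, 87.2% are in Rps13 transcripts. The windows with the most differences again had 2 of 90 bases, and the first of them (bases 428 to 517 of Rps13 transcript ENSMUST00000170953.2 and 371 to 460 of the pseudogene) is printed in the same way.
Rps13: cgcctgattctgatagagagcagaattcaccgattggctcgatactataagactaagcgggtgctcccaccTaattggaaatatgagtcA
Rps13-ps1: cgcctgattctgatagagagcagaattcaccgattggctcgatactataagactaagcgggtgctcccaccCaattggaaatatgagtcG

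The sum of the pair was 2952, 2969, 2942 and 2780 in Cyfip2+/− and 2836, 2742, 2871 and 2837 in WT libraries, and the groups overlapped (exact permutation test, two-sided, p = 0.114). Elsewhere Rps13-ps1 was listed at 573.8 in 1 Cyfip2+/− cortex library of PWK 1 and at 241.4 and 378.5 in 2 of the WT libraries, and at 0 in the others of that age. The mitochondrial transhydrogenase gene Nnt has 2 entries that overlap on chromosome 13. The one annotated as ENSMUSG00000116207 was at 316.8, 418.2, 453.5 and 439.7 in Cyfip2+/− and 235.7, 278.4, 304.7 and 246.4 in WT libraries, a log2 difference of 0.60 (SE 0.13, adjusted p = 0.277). The one annotated as ENSMUSG00000025453 differed by -0.38 (SE 0.16, adjusted p = 0.373), and it contains 100% of the 31-base words of the former. These 3 pairs are uncertain, since the split of shared reads was an estimate.

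Snx25, a sorting nexin, was also chosen after its values were seen. It was at 1635, 1576, 964.8 and 959.6 in Cyfip2+/− and 1642, 1800, 1692 and 1673 in WT libraries, with every Cyfip2+/− library below every WT library (log2 difference -0.45, SE 0.16, adjusted p = 0.324 from limma). Cyfip2+/− libraries 3 and 4 were far below the other 6. Without libraries 1 and 2 the difference was -0.82 (adjusted p = 0.00186 from limma), and Snx25 was the only gene that passed in that fit. The libraries left out there were the 2 Cyfip2+/− libraries nearest to WT in this gene, so the p of that fit is no test of it. In the cortex at PWK 1 Snx25 was at 1402, 1292, 770.6 and 725.6 in Cyfip2+/− and at 1233, 1140, 1258 and 1235 in WT libraries, with libraries 3 and 4 again the lowest. At PWK 7 and 14 the hippocampal libraries lay between 1219 and 1437.

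When all 48 libraries shared 1 estimate of the spread, 76 genes or 0.452% passed the test for the same contrast, 12 higher and 64 lower. Of the 76, all were past the unadjusted 0.05 level in the 8-library fit, and 47 had groups that did not overlap. The 10 with the smallest adjusted p were Cyfip2, Jpt1 as the only higher gene, and 8 lower genes. Ermn, a cytoskeletal protein of myelinating oligodendrocytes, was at 22.1, 22.7, 30.2 and 26.9 in Cyfip2+/− and 82.6, 109.3, 59.2 and 32.0 in WT libraries (adjusted p = 0.00422 from limma in the 48-library model). Iscu, a scaffold for iron-sulfur clusters, was at 794.4, 754.1, 841.2 and 845.5 in Cyfip2+/− and 945.2, 1064, 934.7 and 907.8 in WT libraries, with the same adjusted p. Selplg, a selectin ligand of microglia and leukocytes, was at 193.7, 166.9, 321.8 and 272.1 in Cyfip2+/− and 349.0, 441.1, 359.8 and 353.4 in WT libraries, Tmem88b at 94.6, 102.4, 113.4 and 93.2 in Cyfip2+/− and 191.5, 239.1, 170.8 and 119.4 in WT libraries, and Rtkn at 374.2, 509.1, 553.2 and 436.9 in Cyfip2+/− and 666.3, 757.8, 611.0 and 542.0 in WT libraries. Pvalb, S100b and Gjb6 are given above. Apart from Rtkn and Gjb6, these genes had groups that did not overlap.

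By list, the genes that passed in the 48-library model included 5 of the 12 of myelinating oligodendrocytes, 3 of the 14 of microglia, 2 of the 14 of astrocytes and 2 of the 22 channels, and none of the immature neuron or synaptic vesicle genes. Sox4 was at an adjusted p of 0.05 from limma there. With the 24 hippocampal libraries alone 47 genes passed, of which 36 were among the 76. Both models assume that the PWK 1 hippocampal libraries vary as those of the later ages do. The 48-library model assumes it of cortex as well. The 12 myelin genes summed to 37279 ± 17093 (SD, n = 4) in WT hippocampus at PWK 1 and to 226377 ± 10445 at PWK 7. In Cyfip2+/− the sums were 18258 ± 2892 and 224312 ± 30914. Relative to its mean, the WT spread was wider at PWK 1, so a shared spread can understate it for these genes. Ermn in WT hippocampus at PWK 7 was at 1816, 1778, 1962 and 1924, also closer together for its level than at PWK 1.

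Frontal cortex was sequenced at the same ages. The question was whether the genotype difference at PWK 1 differs between the regions, and the interaction of genotype and region was tested for 17371 genes. None passed the test after adjustment (limma, smallest adjusted p = 0.979), and 835 genes or 4.81% had an unadjusted p below 0.05. With the shared label as a block none passed either (smallest adjusted p = 0.49). The smallest p belonged to Il16, Gm17690, Zfp781, Gli2 and Upp2. Gm17690, an unnamed gene model, was at 61.3, 35.3, 51.2 and 57.0 in Cyfip2+/− and 17.1, 27.8, 24.1 and 17.3 in WT libraries in the hippocampus, where the difference was 1.21, and at 20.3, 8.5, 13.7 and 14.8 in Cyfip2+/− and 36.1, 16, 44.7 and 20.8 in WT cortex, where it was -0.94. Its interaction was 2.15 with an SE of 0.45 (adjusted p = 0.979 from limma). Gli2, a transcription factor of Hedgehog signalling, was at 370.1, 283.5, 260.5 and 246.6 in Cyfip2+/− and 214.6, 232.7, 215.6 and 194.8 in WT libraries in the hippocampus, a difference of 0.42 (SE 0.13), against -0.48 in the cortex.

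Given side by side, the list medians in hippocampus and cortex were 0.28 and 0.25 for immature neurons, -0.93 and -0.69 for myelinating oligodendrocytes, -0.24 and -0.20 for microglia, -0.12 and -0.14 for astrocytes, -0.11 and -0.09 for synaptic vesicles and -0.21 and -0.34 for immediate early genes. They were -0.20 and -0.02 for dentate granule markers, 0.18 and 0.07 for dividing cells, and 1.1 and 0.27 for choroid plexus. Medians of opposite sign included 0.15 and -0.03 for neural stem cells and radial glia, 0.10 and -0.34 for intermediate progenitors, 0.03 and -0.26 for Cajal-Retzius markers, 0.02 and -0.39 for striatal markers and 0.08 and -0.03 for the extracellular matrix. The labels do not state which libraries of the 2 regions share a mouse. The deviations of a hippocampal library from its group mean correlated with those of the cortex library of the same label by 0.121 on average across genes. For the other labels of the genotype the mean was -0.040. Deviations within a genotype sum to 0, so the second value largely follows from the first and is no separate comparison. The interaction was fitted both without the shared label, which treats the regions as independent, and with that label as a block. In the cortex, too, immediate early genes were lowest in Cyfip2+/− libraries 1 and 2, at -0.60 and -0.55 relative to the WT mean, and at -0.04 and -0.27 in libraries 3 and 4.

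**Figure D4:**
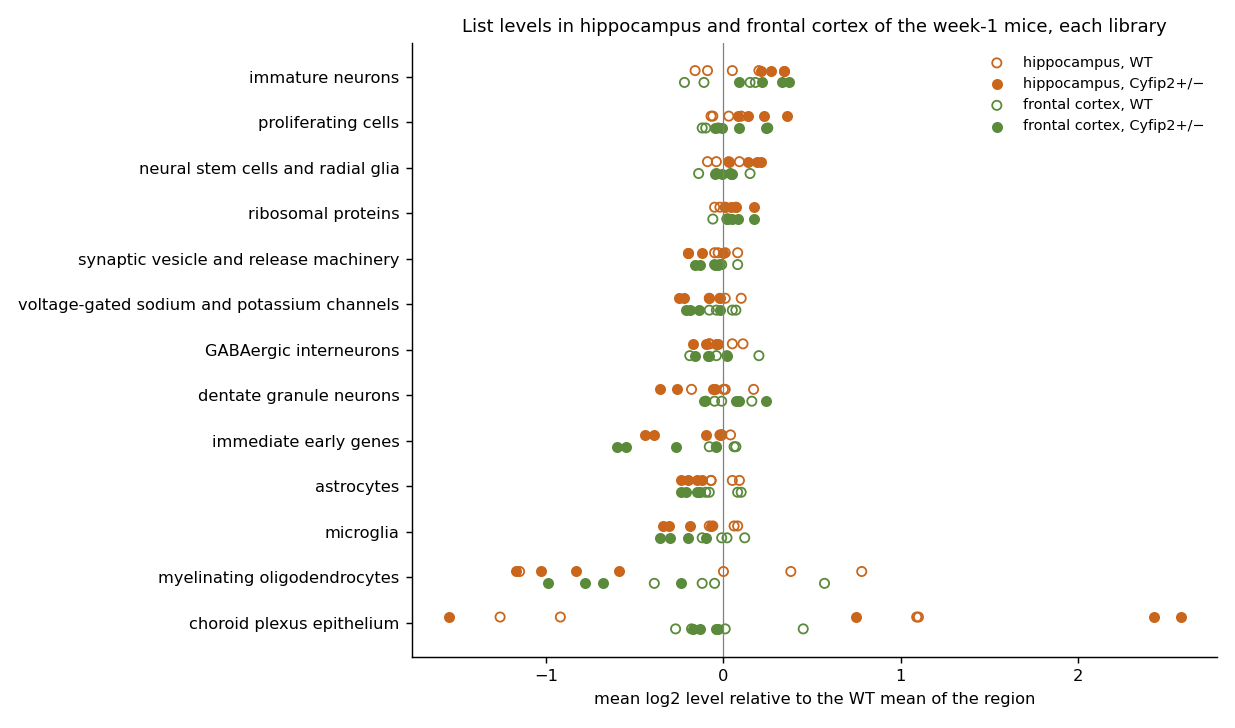
Mean log2 level of the members of 13 gene lists in each PWK 1 library of hippocampus and frontal cortex, relative to the WT mean of the region (open symbols, WT; filled symbols, Cyfip2+/−). Immature neuron genes are above every WT library in the 4 Cyfip2+/− libraries of the hippocampus, whereas in the cortex Cyfip2+/− library 3, at 0.09, lies below 2 WT libraries, at 0.15 and 0.18, and the choroid plexus markers spread from -1.55 to 2.58 in the hippocampus and from -0.27 to 0.45 in the cortex.

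Later ages served to ask whether the PWK 1 difference persisted. The genotype difference at PWK 1 was tested against the mean of those at PWK 7 and 14, for 17850 genes. None passed after adjustment (limma, smallest adjusted p = 0.182), and 1449 or 8.12% had an unadjusted p below 0.05. Leaving out WT library 4 of PWK 1 gave 28 genes past the threshold, leaving out Cyfip2+/− library 3 gave 14, and leaving out Cyfip2+/− library 4 gave 1. The smallest p belonged to Jpt1 (0.39, SE 0.07), 2700081O15Rik (0.36, SE 0.07), Slc15a4 (0.62, SE 0.12), Dpysl3 (0.67, SE 0.14) and Ermn (-1.24, SE 0.26), each with an adjusted p of 0.182 from limma. Dpysl3, a collapsin response mediator of growing axons, was at 45918, 46388, 34952 and 36793 in Cyfip2+/− and 23701, 20610, 32934 and 33608 in WT libraries at PWK 1, and the groups were apart. 2700081O15Rik, an unnamed gene, was at 4002, 3869, 3413 and 3812 in Cyfip2+/− and 2876, 2755, 3188 and 3359 in WT libraries, and Slc15a4, a lysosomal transporter, at 690.6, 818.1, 627.6 and 628.5 in Cyfip2+/− and 528.5, 479.1, 626.5 and 525.4 in WT libraries.

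Immature neuron and myelin genes change steeply over the same period. The 14 immature neuron genes summed to 163095 ± 14993 (SD, n = 4) in Cyfip2+/− and 130795 ± 14584 (SD, n = 4) in WT mice at PWK 1, and to 42364 ± 1638 and 43354 ± 817 at PWK 7. The 12 myelin genes summed to 18258 ± 2892 and 37279 ± 17093 at PWK 1, and to 224312 ± 30914 and 226377 ± 10445 at PWK 7. At PWK 7 and 14 the median differences of these lists were -0.02 and -0.01 for immature neurons and -0.03 and -0.04 for myelinating oligodendrocytes, those of microglia 0.03 and -0.02, and those of synaptic vesicle genes 0.00 and -0.05. For immediate early genes they were -0.13 and -0.18. Cyfip2 itself differed by -0.50 at PWK 7 and by -0.56 at PWK 14 (adjusted p = 0.0156 and 0.0373 from limma).

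**Figure D5:**
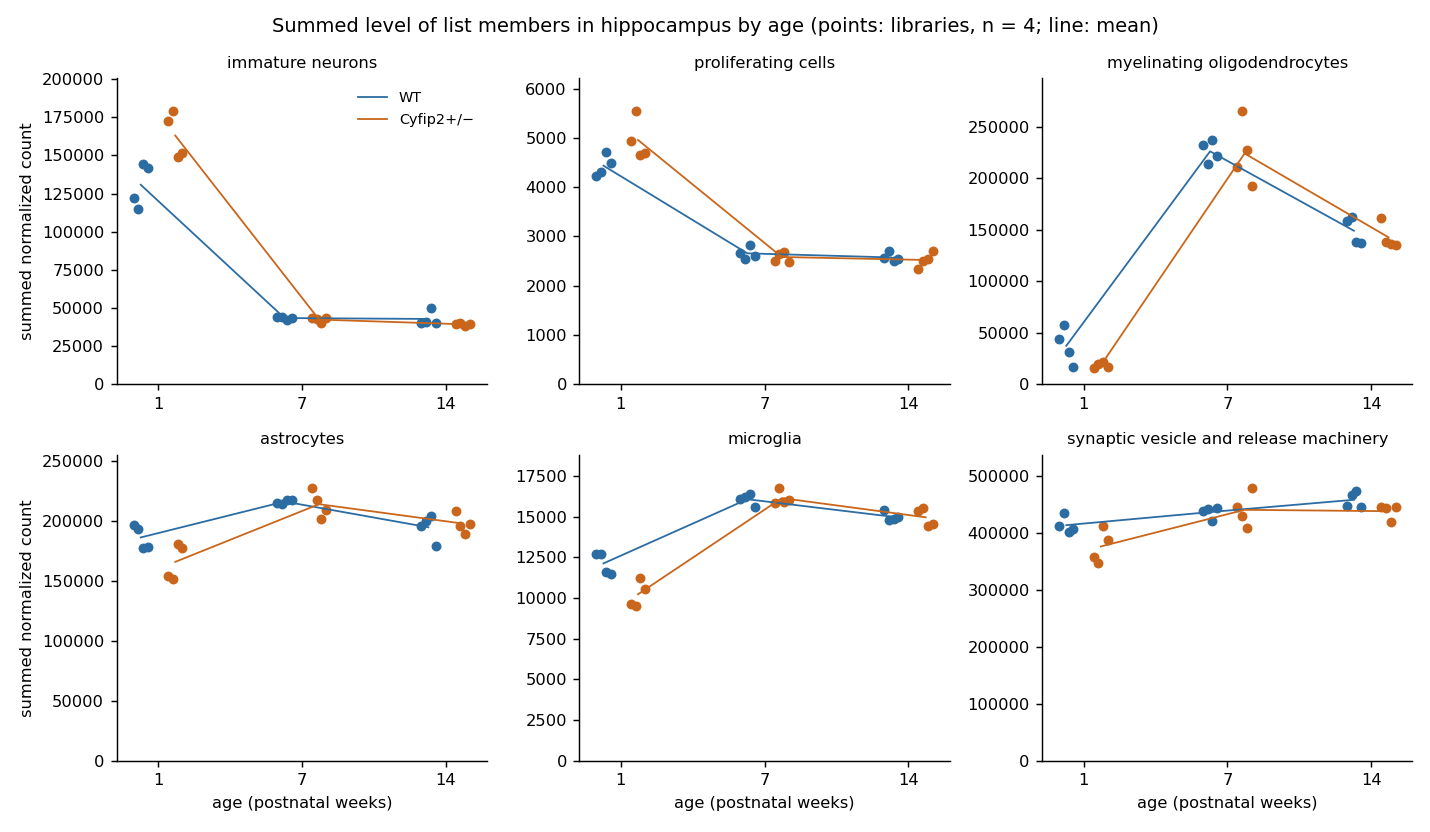
Summed normalized counts of 6 gene lists in the hippocampal libraries (points, n = 4 per group) by genotype and postnatal week, on linear axes that start at 0, with lines through the means. Immature neuron genes are higher and myelin genes lower in Cyfip2+/− at PWK 1, on average. The sums of the genotypes overlap at PWK 1 in myelin genes, where WT library 4 is at 17088, but not in immature neuron genes, and they overlap in both lists at PWK 7.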

How the data were processed

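The deposited table holds signal values, which are counts that the authors estimated per gene with Salmon on GRCm38 and normalized with DESeq2, for 18428 genes in 48 libraries. The submitters' processing notes name Salmon 0.11.2, R 3.6.0 and DESeq2 1.19.11. The library kit is given as stranded, of poly(A) RNA by the labels and of total RNA by the methods. The values are not reads, so no count model was fitted. Depth was estimated from the step between low values, 70.5 to 97.3% of which lay within 0.1 of a whole multiple, which is too few to recover reads.

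Values were taken as log2(value + 1) and tested with limma 3.58.1 (R 4.3.3) with a mean-variance trend, for the 16808 genes that reached 10 in at least 4 of the 8 libraries, with Benjamini-Hochberg adjustment over all of them. This scale understates the change of low genes. Interactions with region and age were fitted in the same way on 16 and 24 libraries. Nothing says that the libraries of a group came from separate litters, so p-values measure the spread between these samples. No pairing by replicate number was seen in the values, and the labels do not say whether the numbers pair the samples.

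The 42 lists (23 of cell types and 19 of pathways) and their members were chosen with earlier results of these data known. Genes are named if they are Cyfip2 or Cyfip1, passed the test, were among the 12 higher or 12 lower protein-coding genes with the smallest p at a mean of at least 100, were among the 4 members of a list with the smallest p or stand beside its count, were among the 5 with the smallest p of an interaction, or were among the 10 with the smallest adjusted p of the 48-library model. Some genes that this rule names are not reported here. Rps13-ps1, Rps13, Snx25, Gm48422, Gm38226 and the second Nnt entry were named after their values were seen. Alternatives were other scalings, pseudocounts, filters, shared spread, a replicate block and leaving out each library. The fits without Cyfip2+/− libraries 1 and 2 and with the choroid plexus covariate were chosen after seeing the data. Gene positions and transcripts are those of GENCODE vM21 (18414 of 18428 identifiers matched), and promoters those of RefSeq.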

Additional observations from a re-analysis of the deposited data

Results flagged for a closer look

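In 356 groups of 4 libraries, 13 had 1 library whose gap to the nearest other relative to the range exceeded Dixon's 95% critical value, where chance gives about 1 in 20, or 18. Among WT libraries, Gbp6 was at 60.0 in library 4 against 44.5 to 47.0 in the others, Rps13-ps1 was at 36.6 in library 1 and listed at 0 in the others, and Selplg was at 441.1 in library 2 against 349.0 to 359.8. Arpc1b was at 637.0 in WT library 3 against 713.1 to 726.0, Sv2b was at 13885 there against 15133 to 15324, and Zbtb18 was at 21557 there against 18753 to 19173. Junb was at 958.3 in WT library 2 against 816.2 to 821.7, and Dhcr7 was at 1858 there against 1970 to 1992. Among Cyfip2+/− libraries, C1qa was at 688.6 in library 3 against 541.4 to 557.9, Kcnc2 was at 1849 there against 1454 to 1515, and Tcf4 was at 22773 in library 4 against 22113 to 22195. The mean log2 level relative to the WT mean was 0.03 for excitatory postsynaptic scaffolds in WT library 2 against -0.01 in the others, and 0.04 for immediate early genes in WT library 4 against -0.02 to -0.01. These 2 list levels are among the 13 but were compared at 2 decimals, where ties come from rounding. Whether they exceed the critical value is thus uncertain.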

How the results depend on the processing

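The number of genes that passed the test was 2. It was 1 with a pseudocount of 10, 1 with at least 50 required in every library, 47 with all 24 hippocampal libraries and 76 with all 48. Without Cyfip2+/− libraries 1 and 2 it was 1, which was Snx25 and neither Cyfip2 nor Gm43302. For Snx25 the libraries left out were the Cyfip2+/− libraries nearest to WT. Leaving out 1 library gave 0 to 5, with 0 without WT library 2, 3 or 4 and 5 without Cyfip2+/− library 3. With the replicate block 0 genes passed, and Cyfip2 differed by -0.50 (adjusted p = 0.366 from limma). The correlations of deviations between same-numbered libraries were -0.048 to 0.027, and 1 of 4 numbers correlated best with its own. These values showed no pairing by number, but whether same-numbered samples shared a litter or batch is not given and was not tested. Cyfip2 differed by -0.41 without Cyfip2+/− libraries 1 and 2 (adjusted p = 0.0599 from limma), and by -0.53 to -0.47 without 1 library. Genes at the unadjusted level numbered 492 higher and 426 lower without Cyfip2+/− libraries 1 and 2, and the lower ones 656 to 1390 without 1 library. Higher genes were 50.7% of these calls, 40.7% in the 24-library and 40.9% in the 48-library model. The age interaction gave 1 gene with a pseudocount of 0.1 and 0 to 28 without 1 library. Ttr reversed, to -0.56 without Cyfip2+/− libraries 1 and 2 and to -0.19 with the choroid plexus covariate, of which the second follows from its being part of that level. Of 2777 alternatives over 133 named genes, 2775 kept the direction. Most of these genes were named for a small p in the same libraries, so this count was largely set by that choice and is no test. Sox4 (0.39, adjusted p = 0.0418 from limma) and Gjb6 (-0.88, adjusted p = 0.0397 from limma) passed without Cyfip2+/− library 3. In both genes that library was the Cyfip2+/− library nearest to WT, so these p-values are no test of them. Gm48422 also passed without library 3, at -4.82, and Gm38226 without Cyfip2+/− library 4, at -4.61. Whether those differences rest on the pseudocount was not tested in these fits. For the other changes the cause was not tested.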
